A study of Mus musculus with 8 samples.

Results

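GPVI, CLEC-2 and immunoreceptor tyrosine-based activation motif (ITAM) signalling was followed through 10 genes chosen by symbol, Gp6, Fcer1g, Clec1b, Treml1, Pecam1, Syk, Lcp2, Plcg2, Btk and Lyn, among the 43548 genes of the deposited platelet table. The libraries were made from washed platelets of 4 TNFdARE mice, with the genotype label TNFdAre +, and 4 littermate control mice, with the label TNFdAre -, all at baseline and aged 8 to 12 weeks. The TNFdARE allele lacks the AU-rich elements of the Tnf transcript in every cell, so TNF-α is in excess throughout the body, the mice develop arthritis and intestinal inflammation, and the line was backcrossed to C57BL/6J. The labels give 2 females and 2 males per genotype but not whether the allele was carried in 1 copy, and parts of them contradict each other on the number, age and sex of the mice. Each mouse gave a single library, and all 8 libraries carry the same batch date. The comparison asks whether platelets formed under constitutive TNF-α excess carry other amounts of these transcripts.

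GPVI, encoded by Gp6, is the main receptor for collagen on platelets and is held at the surface by the Fc receptor γ chain, encoded by Fcer1g, which carries the ITAM. CLEC-2, encoded by Clec1b, binds podoplanin and signals through a single YxxL sequence called a hemITAM. In both routes Src family kinases such as Lyn and Fyn and the kinase Syk lead, through the adaptors LAT and SLP-76 (Lcp2), to the kinase Btk and to phospholipase Cγ2 (Plcg2), which releases calcium and activates integrin αIIbβ3. PECAM1 and TLT-1 (Treml1) carry inhibitory motifs (ITIMs). PECAM1 dampens ITAM signalling, whereas TLT-1 is stored in α-granules and reaches the surface of activated platelets, where it promotes aggregation. Platelets have no nucleus, so their RNA is inherited from megakaryocytes.

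The values are FPKM, a level scaled to transcript length and to the fragments of the library, and this unit was inferred. Sequencing depth is not known for any mouse. Between the libraries, the count of genes above 0 ran from 818 to 4917 per library, and TNFdARE mouse 1 (818), TNFdARE mouse 4 (1225) and control mouse 1 (1479) had the fewest. A single gene, AY036118, took between 33.7% and 67.7% of the summed FPKM. Hprt, which every cell uses, was listed at 0 in all 8 libraries, so a listed 0 was not read as absence of a transcript. As a check of the labelled cell type, all 16 platelet and megakaryocyte markers were above 0 in at least 1 library. By the mean over the 8 mice Pf4 was the most abundant (325 FPKM), but in controls Ppbp was higher (321 against 276 FPKM). In bulk RNA of this kind, fewer cells with a transcript and less of it per cell cannot be told apart.

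Among the genes, Gp6 and Clec1b encode the receptors at the head of the 2 routes. Their promoters are shown because their values ran in opposite directions between genotypes. The RefSeq promoter window of GRCm38.p6, which covers 250 bases before the start of the gene and 50 after it, was at chr7:4397695-4397994 on the minus strand for Gp6 and at chr6:129397047-129397346 on the plus strand for Clec1b. The 250 bases before the start are given 5′ to 3′, with capitals for a match to AGATAA, a form of the sequence bound by GATA factors, on either strand. Other forms of that sequence were not sought or marked, such as tgataa in the bases of Clec1b.
Gp6: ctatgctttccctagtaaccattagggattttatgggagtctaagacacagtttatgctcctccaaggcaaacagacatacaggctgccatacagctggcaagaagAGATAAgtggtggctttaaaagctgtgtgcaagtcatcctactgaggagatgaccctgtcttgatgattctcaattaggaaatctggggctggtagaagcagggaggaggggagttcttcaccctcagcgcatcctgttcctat
Clec1b: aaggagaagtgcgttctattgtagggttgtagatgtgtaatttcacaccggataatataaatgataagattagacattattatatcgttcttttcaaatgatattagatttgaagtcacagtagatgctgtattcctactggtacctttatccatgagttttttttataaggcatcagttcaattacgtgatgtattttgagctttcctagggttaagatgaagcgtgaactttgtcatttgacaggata
The match of Gp6 began at base -144 relative to the start. That of Clec1b began at base 37, after the start, within the following 30 bases.
Clec1b site: ccttcactcagagctgaAGATAAgagagca
A promoter was given for 8 of the 10 genes, in 9 windows. AGATAA was found in those of 4 genes, Gp6, Clec1b, Plcg2 and Lcp2, and in 11.2% of all 32851 windows of this length. The ETS letters AGGAAG were in those of Fcer1g, Lcp2 and Btk and in 35.4% of all windows, and the RUNX letters TGTGGT were in that of Fcer1g alone and in 16.8% of all. These are letter matches in a fixed window and do not show that a factor binds there. The GC content of the windows was 36.3% for Clec1b and 48.7% for Gp6, with a median of 52.7% over all windows.

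Clec1b was the most abundant of the 10 genes in each of the 8 libraries and lay higher in each TNFdARE animal than in any control. The gene (ENSMUSG00000030159) lies at chr6:129397297-129409335 on the plus strand in GENCODE M21 on GRCm38. Its level was 14.8, 47.1, 46.0 and 27.9 FPKM in control mice 1 to 4. It was 50.1, 49.9, 61.2 and 51.2 FPKM in TNFdARE mice 1 to 4. The 4 TNFdARE values sat close together, whereas control mice 1 and 4 were well below control mice 2 and 3. The means were 34.0 ± 15.5 FPKM in controls and 53.1 ± 5.44 FPKM in TNFdARE mice (SD, n = 4). On log2(FPKM + 1) the difference, TNFdARE minus control, was 0.76 (SE 0.49, 95% interval -0.30 to 1.81), with a limma adjusted p of 0.86 over all 1534 genes tested and an unadjusted p of 0.14. The exact two-sided permutation test of this single gene gave p = 0.029, the smallest that 4 mice against 4 can give. Clec1b also placed high among all genes, at rank 308, 92, 105 and 133 in the controls, by mouse number, and at rank 88, 87, 70 and 90 in the TNFdARE mice. It shares up to 184 exonic bases with Clec9a on the same strand, and Clec9a was listed at no more than 0.411 FPKM in any library.

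Gp6, the collagen receptor (ENSMUSG00000078810, chr7:4363965-4397744, minus strand), was lower on average in TNFdARE mice, but control mouse 1 had the lowest value of all. Its level was 0.831, 12.3, 11.2 and 12.2 FPKM in control mice 1 to 4. The corresponding levels in TNFdARE mice were 1.15, 5.35, 7.37 and 4.45 FPKM. Control mice 2, 3 and 4 lay above every TNFdARE mouse, and control mouse 1 and TNFdARE mouse 1 lay far below the rest. The means were 9.13 ± 5.56 and 4.58 ± 2.59 FPKM in controls and TNFdARE mice (SD, n = 4). The difference was -0.66 (SE 0.78, 95% interval -2.35 to 1.03; adjusted p = 0.87 with limma, exact permutation p = 0.40). Without control mouse 1 it was -1.37 (95% interval -2.83 to 0.096), and without TNFdARE mouse 1, the other mouse with little Gp6, it was -0.26.

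Fcer1g, the signalling chain of GPVI (ENSMUSG00000058715, chr1:171229572-171234365, minus strand), had the largest coefficient of variation over the 8 mice among the 7 genes with a mean of at least 1 FPKM (96.9%). Control mouse 1 was listed at 0, and control mice 2 to 4 had 5.59, 17.0 and 8.34 FPKM. TNFdARE mouse 1 was also listed at 0, and TNFdARE mice 2 to 4 had 9.56, 7.42 and 27.6 FPKM. The groups overlapped, and the single value above all controls belonged to TNFdARE mouse 4. The difference was 0.30 (SE 1.07, 95% interval -2.01 to 2.61; adjusted p = 0.96 with limma, exact permutation p = 0.77). It was -0.54 without control mouse 1, -0.37 without TNFdARE mouse 4 and 1.24 without TNFdARE mouse 1. The γ chain is also used by Fc receptors of myeloid, mast and basophil cells. Of the markers of those cells, 8 of 12 for neutrophils, 7 of 10 for monocytes and macrophages and 5 of 7 for basophils and mast cells were at 0 in all libraries, Fcer1a and Cpa3 among them. Others were not, since Lyz2 was at 11.9 to 50.3 FPKM and Gata2 at 0.346 to 6.65 FPKM over the 8 libraries. S100a9 was above 0 only in TNFdARE mouse 4 (10.3 FPKM), the mouse with the highest Fcer1g. The part of RNA from such cells in the level of Fcer1g was not tested.

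For the receptors with inhibitory motifs, the difference between genotypes was smaller than the spread of the mice. Treml1 (ENSMUSG00000023993, chr17:48359916-48367176, plus strand) was at 13.1, 26.5, 33.1 and 18.0 FPKM in control mice 1 to 4. TNFdARE mouse 1 was listed at 0, and TNFdARE mice 2 to 4 had 38.1, 22.8 and 51.1 FPKM. TNFdARE mouse 1 was thus below and TNFdARE mice 2 and 4 were above every control. The difference was -0.59 (SE 1.03, 95% interval -2.81 to 1.62; adjusted p = 0.90 with limma, exact permutation p = 0.91), and it was 0.71 without TNFdARE mouse 1. The group medians ran the other way, at 22.2 FPKM in controls and 30.5 FPKM in TNFdARE mice. Pecam1 (ENSMUSG00000020717, chr11:106654217-106750628, minus strand) was at 13.0, 6.95, 5.64 and 5.14 FPKM in control mice 1 to 4. It was at 16.0, 9.53 and 7.39 FPKM in TNFdARE mice 1 to 3 and listed at 0 in TNFdARE mouse 4. Mouse 1 was the highest of its group in both genotypes. The difference of Pecam1 was -0.40 (SE 0.84, 95% interval -2.20 to 1.41; adjusted p = 0.91 with limma, exact permutation p = 0.89), and it was 0.48 without TNFdARE mouse 4. Its medians also ran the other way, at 6.30 and 8.46 FPKM. Pecam1 is also an endothelial gene. The endothelial markers Cdh5, Tek, Emcn, Egfl7 and Cldn5 were at 0 in all 8 libraries, and the 7 endothelial markers together reached at most 1.82 FPKM in controls and 0.0868 FPKM in TNFdARE mice. Stretches of 150 bases or more of Pecam1 transcripts match 9 other genes at 95% identity or more, and how reads that map to several genes were treated is not given in the sources used here.

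The 2 kinases with measurable levels, Syk and Lyn, had group means that differed by less than the SD of either group. Syk (ENSMUSG00000021457, chr13:52583173-52648792, plus strand) phosphorylates LAT and SLP-76 once bound to the receptors, and it was at 3.53, 7.10, 2.51 and 4.42 FPKM in control mice 1 to 4. In TNFdARE mice 1 to 4 it was at 10.7, 3.69, 2.58 and 3.46 FPKM. TNFdARE mouse 1 stood above the other 7 mice. The means were 4.39 ± 1.97 and 5.12 ± 3.78 FPKM (SD, n = 4), and the difference was 0.084 (SE 0.64, 95% interval -1.30 to 1.47; adjusted p = 0.99 with limma, exact permutation p = 0.86). Lyn (ENSMUSG00000042228, chr4:3678115-3813122, plus strand) can start ITAM signalling and can also phosphorylate ITIMs. Control mice 1 to 4 had 5.41, 16.4, 8.88 and 12.1 FPKM, and TNFdARE mice 1 to 4 had 0.0501, 15.7, 13.5 and 13.2 FPKM. Apart from TNFdARE mouse 1 the TNFdARE values lay inside the control range. The means were 10.7 ± 4.68 and 10.6 ± 7.13 FPKM (SD, n = 4), and the difference was -0.50 (SE 0.86, 95% interval -2.35 to 1.36; adjusted p = 0.90 with limma, exact permutation p = 0.89), or 0.46 without TNFdARE mouse 1. Lyn shares up to 721 exonic bases with Gm26857, a long non-coding RNA on the opposite strand that was listed at 3.65 to 44.4 FPKM. This sum over exon versions can count a base more than once, and the longest matching stretch was 252 bases. Lyn also matches Gm11787 at 98.8% over 1050 bases. Whether strand was used in the counting is not stated, so its level is uncertain.

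The genes for the adaptor, the phospholipase and the Tec family kinase were at or near 0 and did not reach the mean of 1 FPKM set for testing. Lcp2 (ENSMUSG00000002699, chr11:34046920-34092295, plus strand) reached 0.749 FPKM in control mouse 2, 0.124 in control mouse 4, 0.338 in TNFdARE mouse 2 and 0.461 in TNFdARE mouse 3, and was listed at 0 in the other 4. Plcg2 (ENSMUSG00000034330, chr8:117498291-117635142, plus strand) was above 0 in control mouse 4 alone, at 0.520 FPKM. Btk (ENSMUSG00000031264, chrX:134542336-134583570, minus strand) was above 0 in TNFdARE mouse 3 alone, at 0.0502 FPKM. A difference in these 3 genes was not detectable at these levels. The exact permutation test gave p = 1 for Lcp2. For Plcg2 and Btk, above 0 in 1 mouse each, the outcome of that test is fixed in advance and says nothing. For the 7 genes that did reach the mean of 1 FPKM, values listed at 0 came from control mouse 1, TNFdARE mouse 1 and TNFdARE mouse 4 alone, as the plot of the 10 genes by mouse shows. In these libraries 36.1%, 58.3% and 43.0% of all tested genes were listed at 0.

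**Figure D1:**
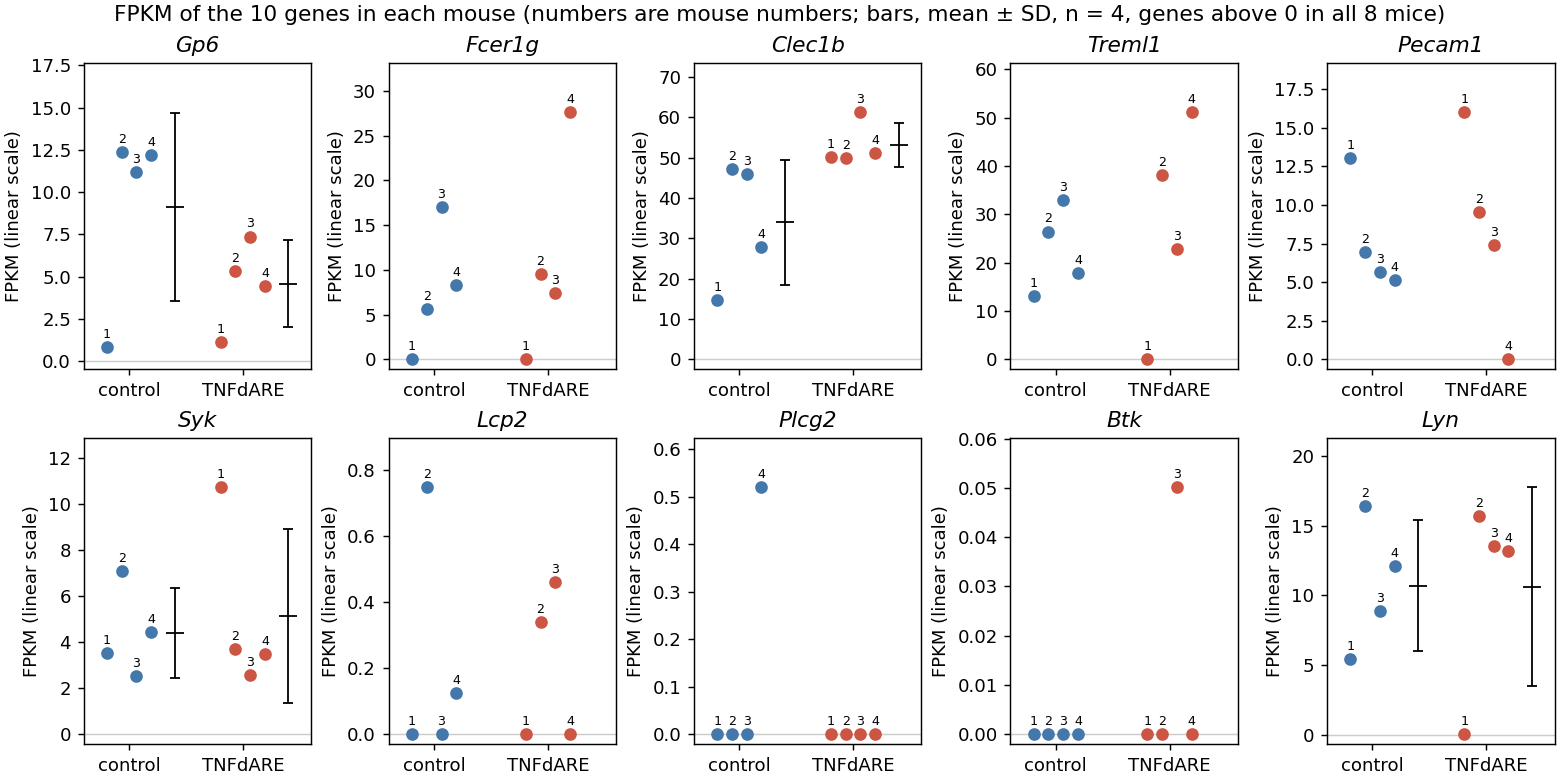
Level of each of the 10 genes in FPKM (vertical axis, linear, scaled per gene) in 4 control and 4 TNFdARE mice, with the mouse number above each point and bars for mean ± SD (n = 4) where the gene was above 0 in all 8 libraries. Clec1b is the one gene whose groups do not overlap, with 49.9 to 61.2 FPKM in TNFdARE mice and 14.8 to 47.1 FPKM in controls, and Plcg2 and Btk are above 0 in 1 mouse each.

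By the mean over the 8 mice, the order of the genes was Clec1b (43.5 FPKM), Treml1 (25.3), Lyn (10.7), Fcer1g (9.44), Pecam1 (7.96), Gp6 (6.86), Syk (4.75), Lcp2 (0.209), Plcg2 (0.0651) and Btk (0.00627). Clec1b was above Treml1, and Syk above Lcp2, in 8 of 8 libraries. Their mean within-library log2 differences were 1.19 ± 1.86 and 2.16 ± 0.65 (SD, n = 8), so the first lay within its spread. That difference was largest in TNFdARE mouse 1, with Clec1b at 50.1 FPKM and Treml1 listed at 0. It was smallest in TNFdARE mouse 4, at 51.2 and 51.1 FPKM. Its spread without TNFdARE mouse 1 was not computed. Treml1 was above Lyn in 7 of 8 (0.98 ± 0.66). The neighbours in the middle did not differ beyond their spread. Lyn was above Fcer1g in 6 libraries, Fcer1g above Pecam1 in 5, Pecam1 above Gp6 in 4 and Gp6 above Syk in 6, with mean within-library log2 differences of 0.53 ± 1.19, -0.16 ± 2.85, 0.19 ± 1.94 and 0.25 ± 1.43 (SD, n = 8). The 10 genes together summed to 50.6, 123, 124 and 88.7 FPKM in control mice 1 to 4 and to 78.0, 132, 123 and 151 FPKM in TNFdARE mice 1 to 4. Clec1b held 29.2% to 38.4% of this sum in controls and 33.9% to 64.2% in TNFdARE mice, and the groups overlapped in both measures.

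The genotype comparison was made for the 7 genes with a mean of at least 1 FPKM. By the mean of log2(FPKM + 1), 3 of these were higher and 4 lower in TNFdARE mice, with a median difference of -0.40, beside -0.30 over all 1534 genes tested. The direction depended on the scale and on single mice. By the group means of FPKM, and by the group medians, 5 were higher and 2 lower. The median difference was 0.46 without TNFdARE mouse 1, 0.20 with quantile normalization, 0.21 with sample weights and 0.23 with the 5 libraries of at least 2000 genes. None of the 7 had a limma p under 0.05, adjusted or not, where 69 of all genes tested (4.50%) passed without adjustment and 0 (0%) with it. The groups did not overlap for 1 of the 7, Clec1b, and for 51 genes in all (3.32%). Gp6, Clec1b, Syk and Lyn were above 0 in all 8 libraries, as were 400 of the tested genes (26.1%). Only Clec1b and Gp6 kept the sign of their difference under all 20 alternative settings that were run. Clec1b ran from 0.42, without control mouse 1, to 1.08, relative to the platelet markers, and Gp6 from -1.37, without control mouse 1, to -0.26, without TNFdARE mouse 1. Clec1b had an unadjusted limma p under 0.05 in 2 of these settings, with sample weights (0.78) and relative to the platelet markers (1.08). In these, 111 and 73 of all 1534 genes tested passed, and the limma adjusted p of Clec1b was 0.66 and 0.94. The 5 libraries of at least 2000 genes were those of control mice 2 to 4 and TNFdARE mice 2 and 3. With these alone, the differences were 0.48 for Clec1b, -0.82 for Gp6, 0.45 for Pecam1, 0.25 for Lyn, 0.23 for Treml1, -0.13 for Fcer1g and -0.39 for Syk.

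**Figure D2:**
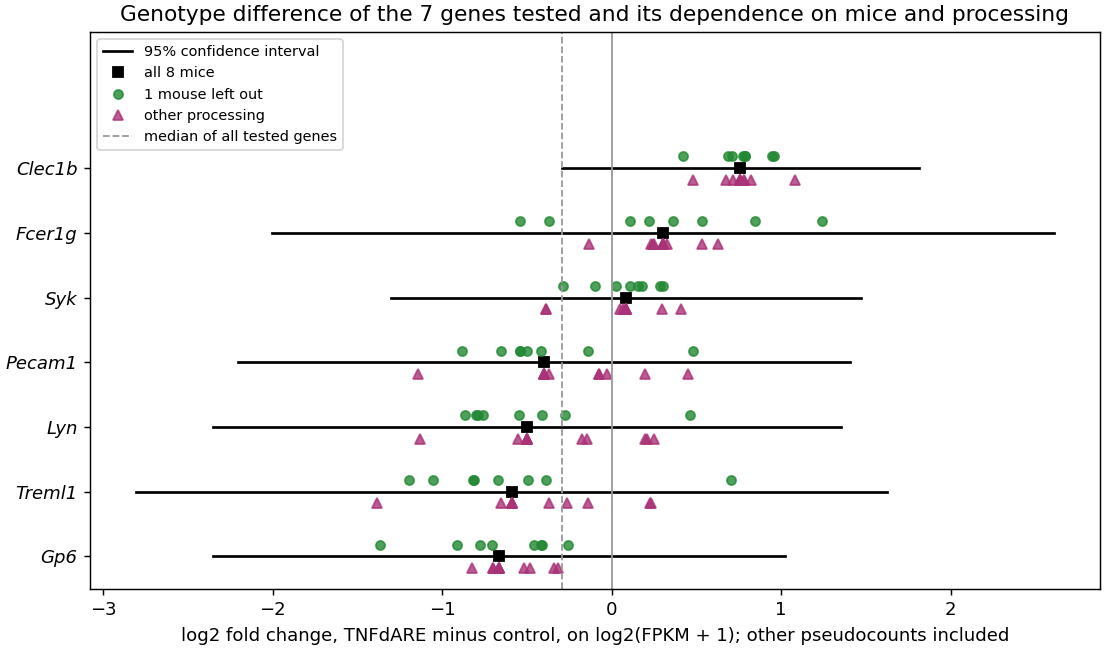
Difference between genotypes (horizontal axis, TNFdARE minus control on the log2 scale) for the 7 tested genes. Squares with lines are the value from all 8 mice and its 95% confidence interval, circles leave out 1 mouse, triangles change another processing choice, and the dashed line is the median of all tested genes (-0.30). Every interval includes 0, and only the points of Clec1b and Gp6 stay on one side of 0.

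The erythroid markers were higher in TNFdARE mice without adjustment. Of their 8 tested genes, 6 had an unadjusted limma p under 0.05, all 6 in that direction, where 4.50% of all genes tested passed, and none had an adjusted p under 0.05. Their summed level was 755, 861, 2205 and 835 FPKM in the controls, by mouse number, and 6937, 1115, 2938 and 14672 FPKM in the TNFdARE mice. It was highest in TNFdARE mice 1 and 4, which had the fewest genes above 0, and TNFdARE mouse 2 lay inside the control range. With the 5 libraries of at least 2000 genes alone, 0 of the 8 passed, and their median difference was 0.68 in place of 1.94. Relative to the platelet markers, whose sum was 1249 to 1703 FPKM in controls and 1153 to 1279 FPKM in TNFdARE mice, the difference of Clec1b was 1.08 and that of Gp6 -0.34. Most markers of other cells were listed at 0 in all libraries, but a few were as abundant as the genes studied. They summed to 0 in controls and up to 10.3 FPKM in TNFdARE mice for neutrophils, led by S100a9 in TNFdARE mouse 4 alone, and to 30.8 to 50.3 and 12.0 to 36.1 FPKM for monocytes and macrophages, led by Lyz2. For B cells, in which Btk, Plcg2, Lyn and Syk also act, the sums were 0 to 34.3 FPKM in controls, led by Igkc, and 0.129 to 13.7 FPKM in TNFdARE mice, where Cd74 alone gave the highest sum (TNFdARE mouse 1) and the lowest (TNFdARE mouse 4), with Cd79a, Cd79b, Ms4a1 and Cd22 at 0 in all 8 libraries. T cell markers reached at most 1.02 FPKM, led by Lck, and basophil and mast cell markers at most 6.65 FPKM, led by Gata2. Endothelial markers were led by Tie1. The part of the erythroid RNA and of the genes found per library in these results was not tested beyond the settings given.

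To set the receptors against each other and against other platelet glycoproteins within a library, their FPKM were divided, a description chosen after the values were seen. Clec1b over Gp6 came to 17.8, 3.82, 4.11 and 2.29 in the controls, by mouse number, and to 43.6, 9.33, 8.31 and 11.5 in the TNFdARE mice. All TNFdARE ratios exceeded those of control mice 2 to 4, while control mouse 1, with little Gp6, lay among them. Clec1b over Itga2b, which encodes integrin αIIb, was 0.237, 0.582, 0.503 and 0.484 in controls and 1.21, 0.739, 0.806 and 1.24 in TNFdARE mice, without overlap. Clec1b over Gp9, a subunit of the receptor for von Willebrand factor, overlapped, with 0.392 to 0.532 in controls and 0.360 to 0.619 in TNFdARE mice. Gp6 over Itga2b ran from 0.0133 to 0.211 in controls and from 0.0277 to 0.107 in TNFdARE mice. The 2 reference glycoproteins therefore gave different pictures for Clec1b. They themselves ran in opposite directions between genotypes, with differences of -0.39 for Itga2b and 0.74 for Gp9. Gp9 was among the 3 of 16 platelet markers that were higher in TNFdARE mice, and among the 3 genes most similar to Clec1b (r = 0.92). How often other genes separate the genotypes when divided by Itga2b was not tested.

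**Figure D3:**
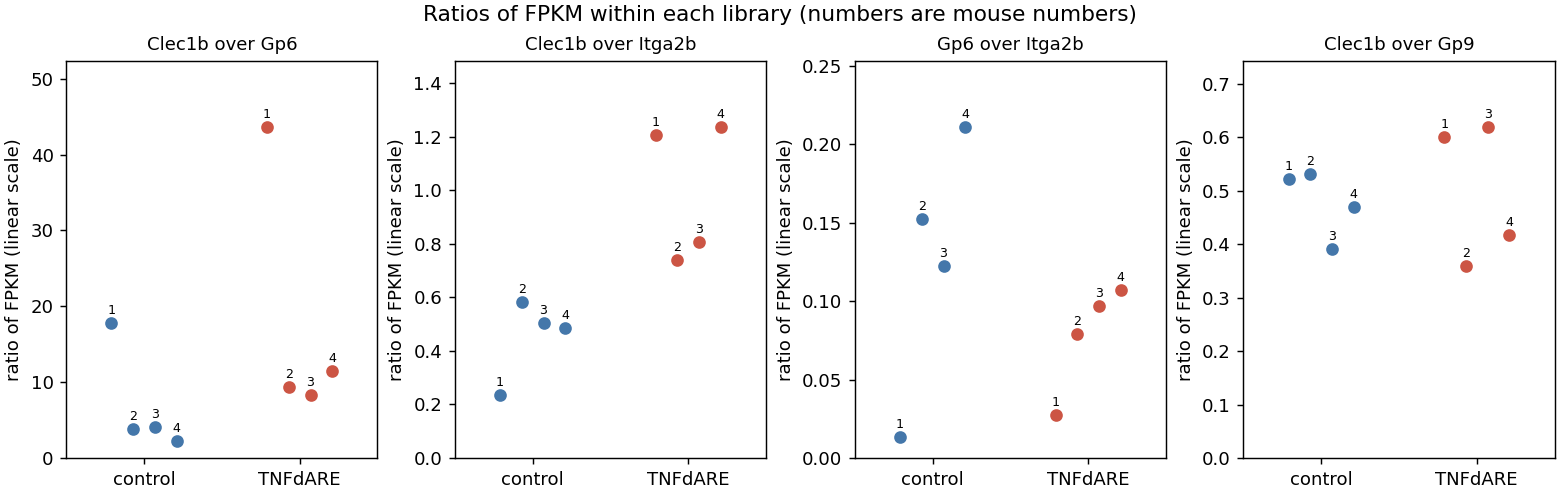
Ratios of FPKM within each library (vertical axes, linear from 0) for 4 pairs of platelet genes, with the mouse number above each point. The groups do not overlap for Clec1b over Itga2b (0.237 to 0.582 in controls, 0.739 to 1.24 in TNFdARE mice) and overlap for the other 3 pairs.

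By sex as labelled, with 2 mice per genotype in each, the difference of Clec1b was 1.27 in females and 0.24 in males, and that of Gp6 was 0.26 and -1.59. Without control mouse 1, a female, the female difference was 0.83 for Clec1b and -1.16 for Gp6, and without TNFdARE mouse 1, a male, the male difference was 0.39 and -0.61. Fcer1g was 2.51 higher in TNFdARE females and 1.91 lower in TNFdARE males on the log2 scale. Treml1 was 1.46 higher in TNFdARE females and 2.65 lower in TNFdARE males. The interaction, male minus female, had an unadjusted limma p under 0.05 for Fcer1g (-4.41) and Treml1 (-4.11), and for 54 of all genes tested (3.52%), and the adjusted p was 0.92 for both. Both were listed at 0 in TNFdARE mouse 1, and Fcer1g also in control mouse 1. Without control mouse 1 the female difference of Fcer1g was 0.90 and that of Treml1 1.25. Without TNFdARE mouse 1 the male differences were -0.37 and -0.36. The interaction of Fcer1g was -2.88 without TNFdARE mouse 1 and -2.80 without control mouse 1, under the threshold in neither. That of Treml1 was -1.83 and -3.90, with an unadjusted p under 0.05 in the first alone. Leaving out a mouse leaves 1 in its genotype and sex, assumed to vary like the others. The interaction of the other 5 genes ran from -2.50 (Lyn) to 2.23 (Pecam1) and did not pass.

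For the genes above 0 in every library, the tested genes with the most similar values over the 8 mice were sought by Pearson's r of log2(FPKM + 1), as a description over points that share library and depth. For Clec1b these were Cd151 (r = 0.93), a tetraspanin, Cap1 (0.92), an actin regulator, and Gp9 (0.92). For Gp6 they were Smdt1 (0.96), a part of the mitochondrial calcium uniporter, 1700037H04Rik (0.95) and the adaptor Skap2 (0.92). Lyn was nearest to Tapbp (0.97), Hist1h1c (0.96) and Treml1 (0.95), each listed at 0 in TNFdARE mouse 1, where Lyn was at 0.0501 FPKM. Syk was nearest to Gm29397 (0.94), Nadk2 (0.93) and Gm12758 (0.90), of which Gm29397 was above 0 in 2 libraries.

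Of 66 other genes of these routes, 15 were listed at 0 in all 8 libraries and 22 reached a mean of 1 FPKM. Of these, 5 were higher and 17 lower in TNFdARE mice, with a median of -0.38 beside -0.30 over all tested genes. None was without overlap, beside 3.32% of all genes tested. The median was -0.057 relative to the platelet markers and -0.12 with quantile normalization, each with 8 higher and 14 lower. With the 5 libraries of at least 2000 genes it was -0.072, with 11 higher and 14 lower. Without TNFdARE mouse 1 it was -0.37, with 18 of the 22 lower. At an unadjusted limma p under 0.05, 2 of the 22 (9.09%) were lower and 0 higher, where 4.50% of all genes tested passed, and neither had an adjusted p under 0.05. The count was below 2 in 14 of the 20 alternatives, and 0 with a pseudocount of 0.1, a mean of 5, quantile normalization, sample weights or scaling to the platelet markers. Grap2, the adaptor GADS that joins SLP-76 to LAT, was at 14.7, 12.4, 5.78 and 7.11 FPKM in control mice 1 to 4. TNFdARE mouse 1 was listed at 0, with 4.46, 6.03 and 1.69 FPKM in TNFdARE mice 2 to 4. The groups met only through control mouse 3 and TNFdARE mouse 3. Its difference was -1.70 (SE 0.73; adjusted p = 0.86 with limma, exact permutation p = 0.057). Rap1b, the small GTPase that switches on integrin αIIbβ3, was at 13.8, 10.7, 13.2 and 13.9 FPKM in control mice 1 to 4. TNFdARE mouse 1 was again listed at 0, with 10.9, 6.90 and 2.77 FPKM in TNFdARE mice 2 to 4. TNFdARE mouse 2 lay within the control range and the others below it. Its difference was -1.68 (SE 0.75; adjusted p = 0.86 with limma, exact permutation p = 0.057). Without TNFdARE mouse 1 the differences were -1.15 for Grap2 and -0.97 for Rap1b, and neither had an unadjusted p under 0.05.

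By role, 8 of 19 exchange factors, small GTPases, calcium channels and protein kinase C genes were tested, 7 lower and 1 higher, with a median of -1.01. Their most abundant gene was Rasgrp2, the exchange factor for Rap1, with 174, 53.6, 26.4 and 76.8 FPKM by mouse number in the controls and 0, 39.8, 71.9 and 57.0 FPKM in the TNFdARE mice. The groups overlapped, and its difference was -1.72 (exact permutation p = 0.37), or -0.27 without TNFdARE mouse 1. In that mouse 5 of the 8 genes were listed at 0, as were 58.3% of all tested genes. The median of the 8 was -0.37 without that mouse. Inhibitory receptors and phosphatases gave 7 tested genes of 17, with a median of -0.11, or -0.29 without TNFdARE mouse 1. They were led by Mpig6b, an ITIM receptor that restrains GPVI and CLEC-2, at 20.1 to 36.0 FPKM in controls and 16.5 to 34.7 FPKM in TNFdARE mice and with a difference of -0.11. Of 14 adaptors and lipid kinases 3 were tested, led by Grap2, with a median of -0.64, or -0.16 without TNFdARE mouse 1, in which all 3 were listed at 0, and the adaptor Lat was below the mean set for testing. Of 9 proximal kinases and their regulators 3 were tested, led by Fyn, whose difference was -0.35, with -0.70 without TNFdARE mouse 1 and -0.033 without control mouse 2. The sheddase Adam10, which cleaves GPVI, had a difference of -0.58 (exact permutation p = 0.54), which was -0.035 without control mouse 2. None of the 5 ligand genes reached the mean for testing. Podoplanin (Pdpn) and the collagen genes Col1a1, Col1a2 and Col3a1 were at 0 in all 8 libraries, and Lgals9 was above 0 in 3, at up to 0.938 FPKM.

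**Figure D4:**
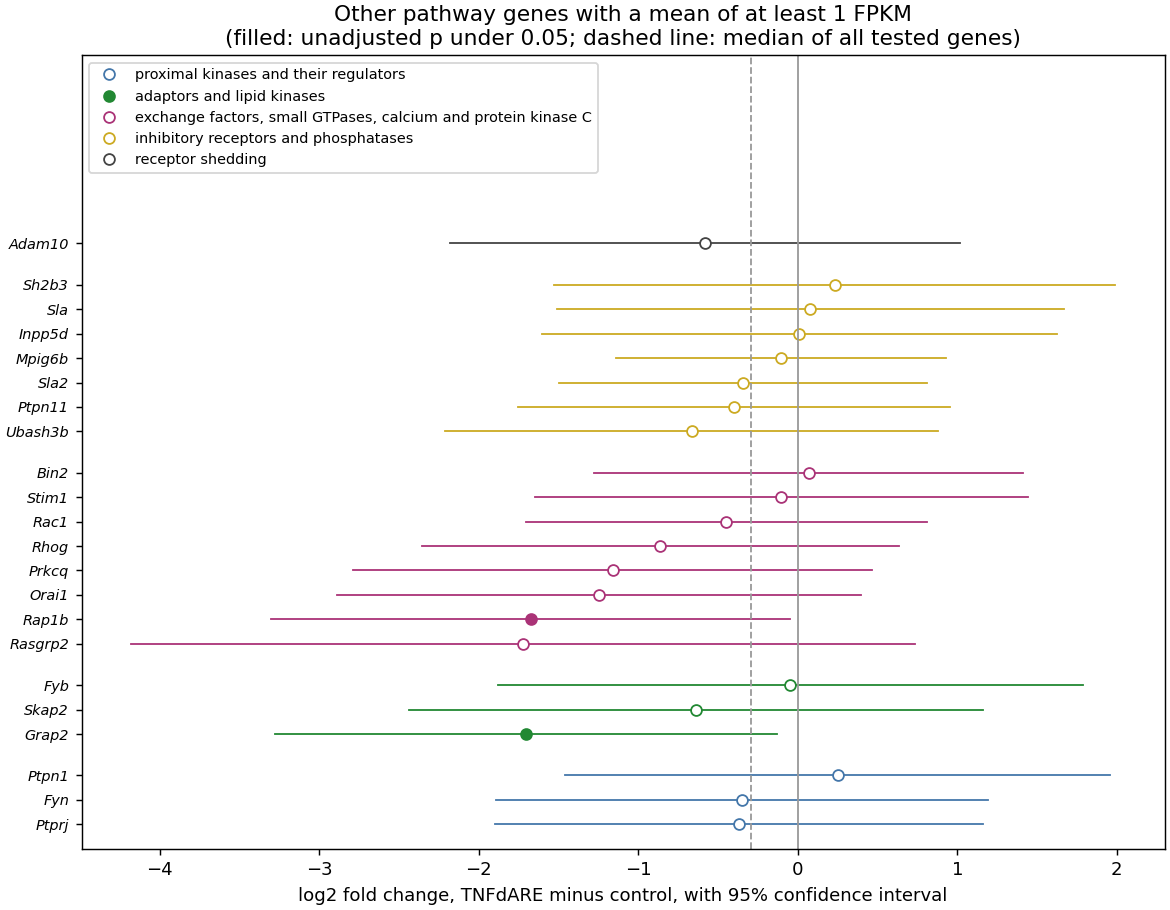
Difference between genotypes (horizontal axis, TNFdARE minus control on log2(FPKM + 1), with 95% confidence intervals) for the 22 other pathway genes with a mean of at least 1 FPKM, coloured by role. Filled points, Grap2 and Rap1b, have an unadjusted limma p under 0.05, and the dashed line marks the median of all tested genes (-0.30).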

How the data were processed

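RNA from washed platelets was sequenced by the authors as 150 bp reads. Per the labels' processing notes, Cufflinks and the mm10 genome were used; versions, annotation, strand and multiple mapping are not given in the sources used here. The deposited table holds a value for each gene in each mouse, which was read here as FPKM because of Cufflinks and because the columns do not sum to 1 total. Depth is unknown: the smallest values above 0 were at most 2.46e-09 FPKM, so low values are estimates and no count test was run. All columns were mapped to mice by library name (0 left unmapped).

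Genes with a mean of at least 1 FPKM over the 8 mice were compared on log2(FPKM + 1), a scale that understates changes of low genes, with limma 3.58.1 in R 4.3.3 (empirical Bayes with trend, Benjamini-Hochberg adjustment over 1534 genes). Simulated data took the means and spread of these genes, but with every level raised well above the real one and with normal noise. With 200 genes changed by 3 on the log2 scale, the adjusted threshold of 0.05 found 61.5% again and called 3 others. The share found at the real levels, with many values listed at 0, was not tested. Single genes had an exact two-sided permutation test (70 assignments). The limma p sets a difference against the spread between mice, steadied with that of all genes tested. The permutation p is the share of assignments with a difference at least as large. The genes and lists were chosen with earlier results of these data known. Named besides the 10 genes are pathway genes with an unadjusted p under 0.05, the most abundant gene of each role and marker list, the 3 genes most similar to each gene above 0 in every library, and genes used by every cell. Alternatives were pseudocounts of 0.1 and 5, filters of none and of a mean of 5, quantile normalization, rescaling without the most abundant gene, no trend, sample weights, a term for sex, a block for the replicate number, and leaving out each mouse. Scaling to the platelet markers, the 5 libraries of at least 2000 genes alone, and the sex interaction with its values and those of the pathway genes without 1 mouse were added after seeing the data. Of the marker lists, 11 of 12 erythroid genes were matched. Shared transcript stretches were found with BLAST 2.17.0. Figures used matplotlib 3.10.9 and Python 3.11.15. The spatial data were not analysed here, and 1 marker gene is not reported.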

Additional observations from a re-analysis of the deposited data

Results flagged for a closer look

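The 10 genes gave 20 groups of 4 mice. In the 16 groups with at least 2 mice above 0, the highest or lowest mouse stood apart in 5 by Dixon's measure, its gap to the next mouse divided by the range of the group. Chance gives about 1 in 20 for independent values with a normal distribution. The groups share libraries and some hold values listed at 0, so that rate need not apply to them. The measure was 0.900 for Gp6 in control mouse 1 (lowest), 0.890 for Clec1b in TNFdARE mouse 3 (highest), 0.864 for Syk in TNFdARE mouse 1 (highest), 0.838 for Lyn in TNFdARE mouse 1 (lowest) and 0.835 for Lcp2 in control mouse 2 (highest). It was 1 for Plcg2 in control mouse 4 and for Btk in TNFdARE mouse 3, where it follows from a single mouse above 0, and it has no value in the 2 groups listed at 0 in all mice. Control mouse 1 and TNFdARE mouse 1 were also among the 3 libraries with the fewest genes above 0, and the part of this in the values was not tested.

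The interaction of genotype with sex had an unadjusted limma p under 0.05 for Fcer1g (-4.41 on the log2 scale, male minus female) and Treml1 (-4.11), as for 3.52% of all genes tested, with an adjusted p of 0.92 for both. Leaving out TNFdARE mouse 1 ended this for Fcer1g (-2.88), and leaving out control mouse 1 ended it for both (-2.80 and -3.90). Either step leaves 1 mouse in that genotype and sex, whose spread is taken from the other groups, so a lost call says little about the size of the difference. Sex was taken from the labels and was not checked otherwise.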

How the results depend on the processing

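No gene reached an adjusted p under 0.05 under any of the 20 alternatives, with smallest adjusted p from 0.15 to 0.94. Genes with an unadjusted p under 0.05 numbered 69, and 36 with a mean of 5 and 111 with sample weights. The split of 27 higher and 42 lower became 34 and 25 with quantile normalization, 74 and 37 with sample weights, 48 and 25 relative to platelet markers, and 46 and 21 with the 5 libraries of at least 2000 genes. The median of all genes, -0.30, was -0.06, -0.01, 0.03 and -0.0011 in these. Of the 10 genes, 0 passed, and 1 (Clec1b) with sample weights and relative to platelet markers, where 111 and 73 of all genes passed. Of the other pathway genes 2 passed, against 0 with a pseudocount of 0.1, a mean of 5, quantile normalization, sample weights and platelet markers, and 1 with no filter, no trend and the 5 libraries. Leaving out 1 mouse gave 46 to 76 genes in all and 0 to 2 pathway genes, with 35 higher and 28 lower without TNFdARE mouse 1 and 26 and 21 without TNFdARE mouse 4.

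Signs turned for 5 genes. With sample weights the differences were 0.21 (Lyn), 0.23 (Treml1), 0.19 (Pecam1) and -0.39 (Syk), and with the 5 libraries 0.25, 0.23, 0.45 and -0.39, with -0.13 for Fcer1g. Quantile normalization gave 0.20 for Lyn. Leaving out 1 mouse gave -0.87 to 0.46 (Lyn), -1.20 to 0.71 (Treml1), -0.88 to 0.48 (Pecam1), -0.29 to 0.30 (Syk) and -0.54 to 1.24 (Fcer1g). The highest values of Lyn and Treml1 and the lowest of Syk came without TNFdARE mouse 1, the highest of Pecam1 without TNFdARE mouse 4 and the lowest of Fcer1g without control mouse 1. The median of the 7 genes, -0.40, was 0.46 without TNFdARE mouse 1. The cause was not tested.

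The labels do not say that mice of the same number belong together. The library names share a number between control mouse 1 and TNFdARE mouse 1 and between control mouse 4 and TNFdARE mouse 3, with no meaning given, and the deviations of these pairs correlated at 0.060 and 0.042. Deviations of same-numbered mice correlated at 0.060, -0.062, 0.024 and -0.067, and 1 mouse was nearest to its own number. With the replicate number as a block, 64 genes had an unadjusted p under 0.05, 0 of the 10 genes and 2 other pathway genes passed, and the p of Clec1b was 0.17. Depth is unknown, and its part in the values listed at or near 0 was not tested.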
